A study of Mus musculus with 6 samples.

Results

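The 10 genes described here belong to the tumour necrosis factor (TNF) receptor superfamily and its ligands, and were followed in CD4+ T cells with and without the histone deacetylase HDAC1. They were the receptors Tnfrsf4 (OX40), Tnfrsf9 (4-1BB), Tnfrsf18 (GITR), Tnfrsf1a, Tnfrsf1b, Tnfrsf25 (DR3), Tnfrsf26 and Cd27, and the ligands Cd40lg (CD40L) and Tnfsf8 (CD30L). They were picked by symbol from the deposited count table, where all 10 were found among 55536 genes, and all 10 passed the low-count filter that kept 15519 genes.

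The libraries came from donor T cells on a C57BL/6 background, all carrying the 2D2 receptor transgene, which recognises a peptide of myelin oligodendrocyte glycoprotein (MOG), and all carrying floxed Hdac1 alleles (Hdac1fl/fl). HDAC1-cKO cells had Cre recombinase driven by the Cd4 promoter (Cd4-Cre+), and WT cells were Cd4-Cre-, so that Cre itself differed between the groups as well. Naive CD45.2+ donor cells were put into CD45.1+ recipients, which were immunised with the peptide in complete Freund's adjuvant after 18 hours, and popliteal lymph nodes were taken 4 days after that. Each of the 6 libraries, 3 per genotype, was made from 500 sorted cells pooled from 2 mice, and the sources used here give no ages. No unimmunised cells are part of the comparison, so differences present before activation cannot be told apart from later ones.

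Receptors of this superfamily bind trimeric ligands and carry no enzyme of their own. Costimulatory members such as OX40, 4-1BB, GITR and CD27 recruit TRAF adaptor proteins, which switch on NF-kB signalling and prolong the division and survival of T cells that have met antigen. OX40 and 4-1BB are induced by antigen receptor signalling, CD27 is already present on naive cells, and CD40L on helper T cells licenses B cells and dendritic cells through CD40. TNFR1 and DR3 carry a death domain, which can also couple to cell death.

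Of the 10 genes, 6 lie on chromosome 4, and Tnfrsf4 and Tnfrsf18 are neighbours there, 9552 bases apart and on the same strand. The promoters of these neighbours and of Tnfrsf9, the gene with the lowest fold change, are shown because NF-kB and AP-1 are the factors known best downstream of T cell costimulation. Windows of 300 bases around the start sites (250 before, 50 after; RefSeq, GRCm38.p6) were at hand for 8 of the 10 genes, and RefSeq starts can differ from the gene bounds given further on, which are those of the count table. Both strands were searched for the NF-kB consensus (kappa-B site) and for the AP-1 motif TGANTCA, and matches are in capitals.
Tnfrsf9, second start, chr4:150927749-150928048, plus strand: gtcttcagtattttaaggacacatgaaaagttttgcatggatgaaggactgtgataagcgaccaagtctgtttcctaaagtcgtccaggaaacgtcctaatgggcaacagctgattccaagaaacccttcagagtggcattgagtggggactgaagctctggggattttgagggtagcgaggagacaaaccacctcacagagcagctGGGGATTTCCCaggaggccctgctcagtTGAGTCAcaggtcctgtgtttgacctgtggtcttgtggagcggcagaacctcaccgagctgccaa
Tnfrsf4, chr4:156013445-156013744, plus strand: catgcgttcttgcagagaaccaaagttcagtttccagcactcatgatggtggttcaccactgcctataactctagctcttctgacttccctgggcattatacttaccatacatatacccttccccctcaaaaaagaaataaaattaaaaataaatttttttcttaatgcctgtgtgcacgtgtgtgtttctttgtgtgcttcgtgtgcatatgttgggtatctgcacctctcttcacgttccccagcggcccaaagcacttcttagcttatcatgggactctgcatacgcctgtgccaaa
Tnfrsf18, chr4:156026072-156026371, plus strand: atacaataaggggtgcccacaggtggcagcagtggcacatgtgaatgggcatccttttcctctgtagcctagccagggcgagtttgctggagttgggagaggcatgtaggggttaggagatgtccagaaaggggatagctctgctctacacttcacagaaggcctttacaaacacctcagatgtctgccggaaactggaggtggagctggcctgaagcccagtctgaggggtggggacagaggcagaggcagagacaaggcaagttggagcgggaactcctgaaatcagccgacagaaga
The second start of Tnfrsf9 held 2 overlapping NF-kB matches, which form the run GGGGATTTCCC, and 1 AP-1 match, TGAGTCA, with no overlap between both motifs. The windows of Tnfrsf4 and Tnfrsf18 held neither motif, nor did the other window of Tnfrsf9. Of the 10 windows of members, 2 held an NF-kB match (Tnfrsf9 and Tnfrsf25) and 1 an AP-1 match, whereas 8.5% and 7.8% of all 32851 windows of this length did. A match describes letters only, and the libraries hold no measurement of binding.

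Hdac1 served as a check of the labels. The HDAC1-cKO libraries held 14.7 to 17.2 CPM of its reads (counts scaled to a common library total) and the WT libraries 234 to 244 CPM, a log2 fold change of -3.91 ± 0.12 (SE; adjusted p = 9.59e-06, edgeR). Total counts ran from 19956153 to 55900237 and were higher in all WT than in all HDAC1-cKO libraries. HDAC1-cKO replicate 2 stood apart. Its departure from the average library followed GC content at a Pearson r of 0.61 over 7363 well-expressed genes (genes are no independent replicates), against -0.312 to -0.054 elsewhere. T cell genes were abundant throughout, with 12 markers summing to 24050 to 32330 CPM in HDAC1-cKO against 27870 to 33370 CPM in WT. Most of these sums came from Trbc2, at 17570 to 24840 CPM in HDAC1-cKO against 20660 to 24770 CPM in WT. They therefore say little about the other markers, whose fold changes are described further on.

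All 10 genes had a negative log2 fold change in HDAC1-cKO (9 with library totals as the only scaling, where Cd27 turned positive), yet none passed the threshold over all genes. The median over the 10 was -0.73, beside -0.002 over all 15519 genes tested, of which 50.3% had a negative fold change. The 10 were chosen with earlier results of these data known, so these shares are descriptions. By edgeR's quasi-likelihood test with Benjamini-Hochberg adjusted p under 0.05, 0 of 10 were lower and 0 higher, where 0.992% and 0.979% of all genes were called lower and higher. At an unadjusted edgeR p under 0.05, 8 of the 10 were lower, as were 8.39% of all genes. DESeq2 called 4 of the 10 lower and 0 higher (3.83% and 4.06% of all genes), and limma-voom with sample weights 7 lower and 0 higher (5.28% and 4.96%). In 6 of the 10 the 3 HDAC1-cKO libraries all lay below the 3 WT libraries, which held for 11.8% of all genes. These 6 were Tnfrsf4, Tnfrsf9, Tnfrsf18, Tnfrsf1a, Tnfrsf1b and Cd40lg. Such separation was also seen in 4 of 12 T cell markers and in lists described below. There it held for 3 of 10 other ligands, 2 of 13 other receptors, 8 of 24 adaptors and kinases, 4 of 13 activation genes and 0 of 11 NF-kB genes. Since these are bulk libraries, fewer cells that use a gene and less of its RNA per cell cannot be told apart.

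**Figure D1:**
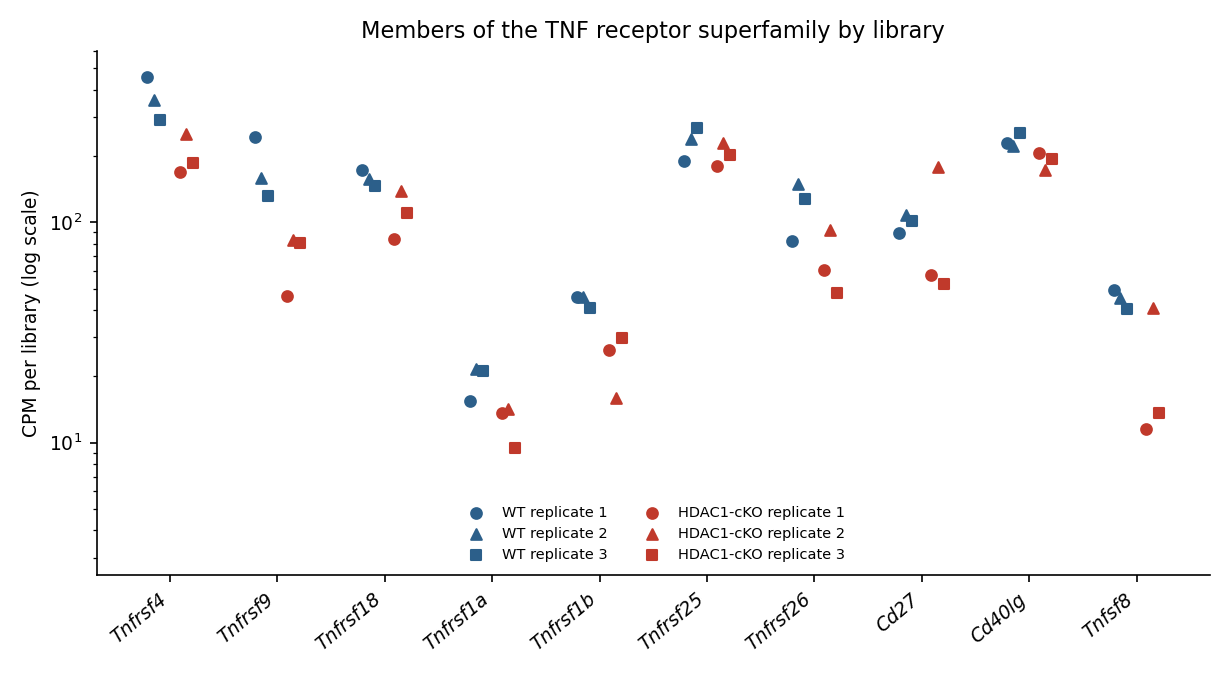
CPM (log scale) of each of the 10 genes in each library, with WT in blue and HDAC1-cKO in red, and marker shapes for replicates 1, 2 and 3. For 6 genes the red points all lie below the blue ones, and for Cd27 and Tnfsf8 the red triangle of HDAC1-cKO replicate 2 lies far above the other red points.

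Of the activation-induced receptors, Tnfrsf9 showed the lowest fold change of the 10. Its transcripts (ENSMUSG00000028965, chromosome 4, 150914562 to 150946102, GRCm38) stood at 46.0, 83.4 and 80.1 CPM in HDAC1-cKO replicates 1, 2 and 3, against 243, 159 and 132 CPM in WT replicates 1, 2 and 3. The groups did not overlap, HDAC1-cKO replicate 1 was the lowest library and WT replicate 1 the highest. The means were 69.9 ± 20.7 and 178 ± 57.9 CPM (SD, n = 3), so that HDAC1-cKO held 39.3% of the WT level. The log2 fold change was -1.35 ± 0.29 (SE; adjusted p = 0.0595, edgeR). Across the settings tried it ran from -1.53 to -1.07, and its adjusted p, from 6.29e-05 to 0.161, was 0.0166 with limma-voom and 0.0409 once each library's trend with GC content was removed.

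Tnfrsf4, the gene of OX40 (ENSMUSG00000029075, chromosome 4, 156013843 to 156016612), had 169.7, 250.4 and 186.5 CPM in HDAC1-cKO against 456, 359 and 291.5 CPM in WT. The highest HDAC1-cKO library, replicate 2, was still below the lowest WT library. Means of 202 ± 42.6 and 369 ± 82.5 CPM (SD, n = 3) gave 54.9% of the WT level and a log2 fold change of -0.87 ± 0.20 (SE; adjusted p = 0.0718, edgeR). Without HDAC1-cKO replicate 2 this gene passed the threshold (log2 fold change -1.06, edgeR adjusted p = 0.0313), as it did with the GC trend removed (-0.95, adjusted p = 0.0332). Over 20 alternatives the adjusted p ran from 0.00129 to 0.215.

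Its neighbour Tnfrsf18, the gene of GITR (ENSMUSG00000041954, chromosome 4, 156026164 to 156028895), had 84.2, 139 and 109.7 CPM in HDAC1-cKO against 172, 157 and 146 CPM in WT. The groups were separated by the small gap between HDAC1-cKO replicate 2 and WT replicate 3. The difference was smaller than for Tnfrsf4, with 70.1% of the WT level left and a log2 fold change of -0.51 ± 0.18 (SE; adjusted p = 0.196, edgeR). Leaving out HDAC1-cKO replicate 2 gave -0.72 (adjusted p = 0.0386, edgeR), and leaving out HDAC1-cKO replicate 1 gave -0.35 (adjusted p = 0.339). The adjusted p of Tnfrsf18 lay between 0.0254 and 0.400 over the alternatives. Gm16008 on the other strand covers 27.2% of the exon bases of Tnfrsf18, and its reads cannot be separated without strand. The counts given to this antisense gene were 0.669 CPM without HDAC1 and 1.16 CPM in WT. How reads in the shared bases were assigned is not stated, so its part in the Tnfrsf18 counts cannot be read from these values. In both groups, the libraries took the same order for Tnfrsf4 and Tnfrsf18: HDAC1-cKO replicates 2, 3 and 1, and WT replicates 1, 2 and 3, from high to low. This order was not particular to the neighbours, since Tnfrsf9 and Tnfsf8, farther away on chromosome 4, took it too. Whether the fold changes of Tnfrsf4 and Tnfrsf18 differ from each other was not tested.

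The receptors for TNF itself were expressed at lower levels. Tnfrsf1b, which encodes TNFR2, the costimulatory TNF receptor of T cells (ENSMUSG00000028599, chromosome 4, 145213463 to 145246870), had 26.4, 15.95 and 29.8 CPM in HDAC1-cKO against 45.7, 45.7 and 40.9 CPM in WT. Here HDAC1-cKO replicate 2 was the lowest library, and the groups did not overlap. The mean was 24.1 ± 7.24 against 44.1 ± 2.75 CPM (SD, n = 3), with a log2 fold change of -0.88 ± 0.23 (SE; adjusted p = 0.0942, edgeR). Without that library the difference was smaller, -0.66, with a SE of 0.12, and passed the threshold (edgeR adjusted p = 0.0386). Over 20 alternatives the adjusted p ran from 0.00599 to 0.263.

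Tnfrsf1a, which encodes the death domain receptor TNFR1 (ENSMUSG00000030341, chromosome 6, 125349362 to 125362484), had the lowest counts of the 10, from 193 to 1185 per library. Its values were 13.6, 14.2 and 9.46 CPM in HDAC1-cKO against 15.4, 21.5 and 21.1 CPM in WT. The groups did not overlap, although WT replicate 1 was close to the HDAC1-cKO libraries. The log2 fold change was -0.64 ± 0.22 (SE; adjusted p = 0.187, edgeR), and this gene passed the threshold only with limma-voom among the 20 alternatives (adjusted p = 0.0338, against up to 0.448 in the others).

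Tnfrsf25 and Tnfrsf26 gave overlapping groups. Tnfrsf25, the gene of the death domain receptor DR3 (ENSMUSG00000024793, chromosome 4, 152115934 to 152120119), had 179.6, 229.9 and 202 CPM in HDAC1-cKO against 189, 239 and 266.5 CPM in WT. Its log2 fold change was -0.18 ± 0.15 (SE; adjusted p = 0.625, edgeR), with a 95% interval from -0.54 to 0.17, and it passed the threshold under none of the 20 alternatives. Tnfrsf26, which lies on chromosome 7 (ENSMUSG00000045362, 143607659 to 143628722) beside the decoy receptor genes Tnfrsf22 and Tnfrsf23, had 60.5, 92.5 and 47.5 CPM against 81.9, 149 and 127 CPM. Only HDAC1-cKO replicate 2 and WT replicate 1 crossed, and the log2 fold change was -0.83 ± 0.29 (SE; adjusted p = 0.185, edgeR). Without HDAC1-cKO replicate 2 it was -1.15 (edgeR adjusted p = 0.0591), and over the alternatives the adjusted p ran from 0.0133 to 0.469.

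The values of Cd27, a costimulatory receptor of naive and memory T cells (ENSMUSG00000030336, chromosome 6, 125232622 to 125237010), depended on 1 library. HDAC1-cKO replicates 1 and 3 had 57.5 and 52.2 CPM, below the WT libraries at 89.6, 108 and 101 CPM, while HDAC1-cKO replicate 2 had 177.5 CPM, above them all. With all libraries the log2 fold change was -0.05 ± 0.43 (SE; adjusted p = 0.970, edgeR), with a 95% interval from -1.04 to 0.93. With that library left out Cd27 fell, with a log2 fold change of -0.87 (adjusted p = 0.0185, edgeR). The sign turned when HDAC1-cKO replicate 1 or 3 was left out, to 0.21 and 0.24 (adjusted p = 0.876 and 0.864, edgeR), and with limma-voom and sample weights the value was -0.77 (adjusted p = 0.0638). Over all 20 alternatives the adjusted p of Cd27 ran from 0.0185 to 0.997.

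Both ligands are surface proteins of activated helper T cells. Cd40lg (ENSMUSG00000031132, chromosome X, 57212143 to 57224042) had 205, 173 and 194 CPM in HDAC1-cKO against 228.5, 223 and 253 CPM in WT, a narrow but complete separation. HDAC1-cKO kept 81.3% of the WT level, with a log2 fold change of -0.30 ± 0.11 (SE; adjusted p = 0.212, edgeR) and a 95% interval from -0.55 to -0.05. It passed the threshold under none of the 20 alternatives.

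Tnfsf8, the gene of CD30L (ENSMUSG00000028362, chromosome 4, 63831308 to 63861347), resembled Cd27 in that HDAC1-cKO replicate 2 lay far above the other HDAC1-cKO libraries, though here within the WT range. HDAC1-cKO replicates 1 and 3 had 11.5 and 13.6 CPM, HDAC1-cKO replicate 2 had 41.0 CPM, and WT replicates 1, 2 and 3 had 49.2, 45.2 and 40.2 CPM. With all libraries the log2 fold change was -1.02 ± 0.44 (SE; adjusted p = 0.291, edgeR). With that library left out Tnfsf8 fell, with a log2 fold change of -1.85 ± 0.16 (SE; adjusted p = 0.00594, edgeR), the lowest value of the 10 in that fit. Leaving out HDAC1-cKO replicate 1 or 3 gave -0.71 and -0.78 (adjusted p = 0.474 and 0.532, edgeR). Over the alternatives the adjusted p ran from 0.00553 to 0.540.

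**Figure D2:**
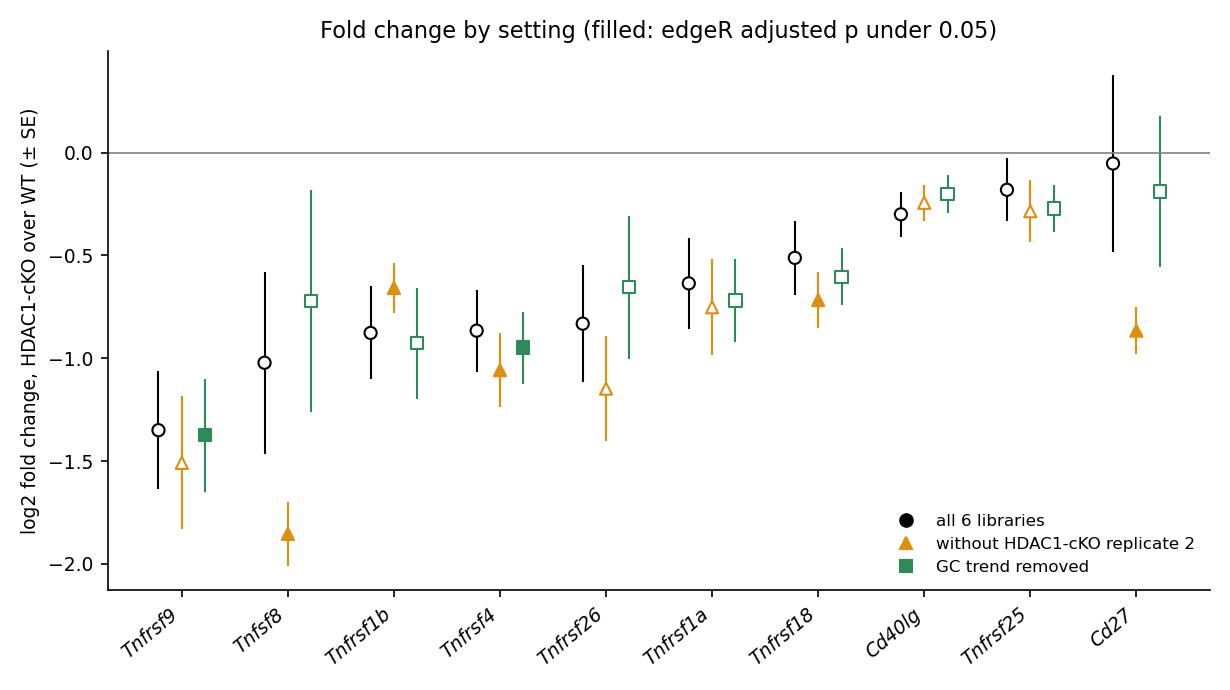
log2 fold change of HDAC1-cKO over WT (± SE) for each gene with all 6 libraries, without HDAC1-cKO replicate 2, and with each library's GC trend removed; filled markers have an edgeR adjusted p under 0.05. Leaving out HDAC1-cKO replicate 2 moves Cd27 from -0.05 to -0.87 and Tnfsf8 from -1.02 to -1.85, and the markers of all genes lie below 0 in each setting shown.

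HDAC1-cKO replicate 2 was often the extreme library of its genotype. Among the HDAC1-cKO libraries it had the highest CPM for 8 of the 10 genes and the lowest for 2, Tnfrsf1b and Cd40lg, a count not made over all genes. Without it all 10 fold changes were still negative, the median was -0.81, and 5 genes fell: Tnfrsf4, Tnfrsf18, Tnfrsf1b, Cd27 and Tnfsf8 (edgeR adjusted p under 0.05), against 2.28% of all genes called lower. Tnfrsf9 did not pass in that fit (-1.51, edgeR adjusted p = 0.0538). The remaining HDAC1-cKO libraries lay below all WT libraries for 9 of the 10, all but Tnfrsf25, which held for 19.7% of all genes. It also held for 10 of 12 T cell markers and, among lists described below, for 13 of 24 adaptors and kinases. The counts were 5 of 11 other ligands, 6 of 15 other receptors, 6 of 13 activation genes and 4 of 11 NF-kB genes. In HDAC1-cKO replicate 2, Cd27, whose transcripts have 55.9% GC, lay 1.13 above the mean of its genotype on the log2 scale, and the fitted GC trend there was 0.20. For Tnfsf8, with 42.6% GC, the deviation was 1.14 and the fitted trend -0.37. What sets this library apart was not tested. With the GC trend removed from every library, Tnfrsf4 and Tnfrsf9 fell and the other 8 did not pass, beside 1.75% of all genes called lower.

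Per transcript length, Tnfrsf4 was the most abundant of the 10 in both genotypes. On the deposited FPKM scale, which corrects for length, it stood at 354 ± 77.7 in WT and 193.5 ± 40.3 in HDAC1-cKO (SD, n = 3). In WT it was followed by Cd40lg at 186 ± 13.3, Tnfrsf18 at 124 ± 9.81, Tnfrsf25 at 120.3 ± 21.02, Tnfrsf9 at 70.7 ± 22.7, Cd27 at 63.2 ± 5.94 and Tnfrsf26 at 36.7 ± 10.6 FPKM. Tnfsf8, Tnfrsf1b and Tnfrsf1a came last, at 11.7 ± 1.12, 11.4 ± 0.675 and 8.88 ± 1.60 FPKM. The ranges of Tnfrsf18 and Tnfrsf25, of Tnfrsf9 and Cd27, and of Tnfsf8 and Tnfrsf1b overlapped in WT, so these neighbours in the order did not differ beyond their spread. In HDAC1-cKO, Tnfrsf9 stood at 27.7 ± 8.18 FPKM, below Cd27 at 60.5 ± 44.6, where the highest Tnfrsf9 library lay just under the lowest Cd27 library, and its range overlapped that of Tnfrsf26 at 20.5 ± 7.04. The 3 genes of lowest level, Tnfrsf1b, Tnfsf8 and Tnfrsf1a, stood at 6.22 ± 1.88, 5.69 ± 4.24 and 5.68 ± 1.17 FPKM there and overlapped.

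**Figure D3:**
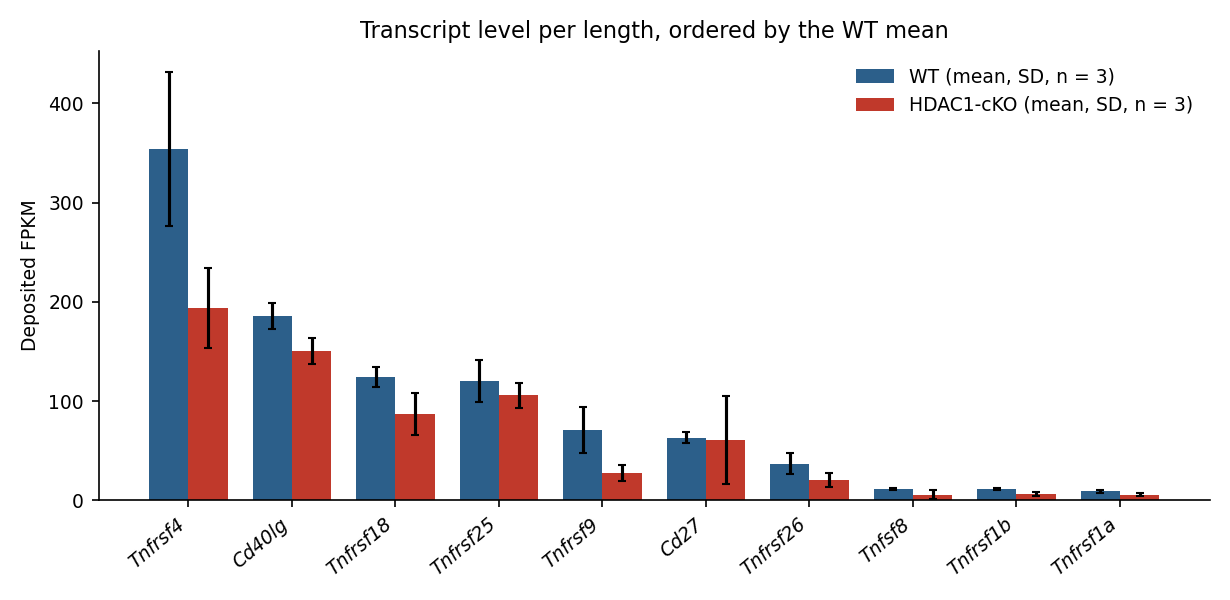
Deposited FPKM (mean and SD, n = 3 libraries) of the 10 genes in WT (blue) and HDAC1-cKO (red), ordered by the WT mean. Tnfrsf4 leads in both genotypes, at 354 and 193.5 FPKM, and the wide error bar of Cd27 in HDAC1-cKO reflects the single library at 177.5 CPM.

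Partners of the 10 genes, named here for their pairing and outside the naming rule, were measured in the same cells. CD30, the receptor of the Tnfsf8 product, is encoded by Tnfrsf8, which had 3.04, 2.68 and 10.1 CPM in HDAC1-cKO replicates 1, 2 and 3 against 16.0, 18.6 and 14.7 CPM in WT (log2 fold change -1.67 ± 0.48, SE; adjusted p = 0.123, edgeR). Tnfsf9, the ligand of 4-1BB, had 19.0, 13.8 and 23.8 CPM against 35.0, 27.1 and 32.9 CPM, also without overlap (-0.75 ± 0.22, adjusted p = 0.124). The libraries thus held transcripts of both partners of these pairs. Ligands of other members were scarce: Tnfsf18 of GITR was at 0 counts in all 6 libraries, Cd70 of CD27 reached at most 1.21 CPM, Tnfsf4 of OX40 at most 1.87 CPM and Tnfsf15 of DR3 at most 0.683 CPM. Cd40, the receptor of CD40L and a B cell gene, reached 1.36 CPM, its highest value, in HDAC1-cKO replicate 2. Tnf ran from 31.7 to 52.1 CPM in HDAC1-cKO, overlapping the WT libraries at 36.7 to 62.4 CPM (-0.24, edgeR adjusted p = 0.692).

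Across the rest of the family, no list had a gene past the threshold with edgeR. Of 20 other receptors 13 were tested, with 7 negative and 6 positive fold changes and a median of -0.05. Several were at low levels, such as Cd40, Tnfrsf19 and Tnfrsf12a with WT means of 0.520, 0.684 and 2.43 CPM. The lowest WT mean of a member was that of Tnfrsf1a, at 19.35 CPM. The other receptors of lowest p were Tnfrsf8 and Relt, the latter with -0.49 ± 0.27 (SE; adjusted p = 0.425, edgeR). Only Tnfrsf8 had an unadjusted edgeR p under 0.05, and 1 was called lower by DESeq2 and 2 by limma-voom. Fas, the death receptor of activated T cells and outside the naming rule, had 40.1 to 61.1 CPM in HDAC1-cKO against 30.1 to 44.3 CPM in WT (0.36, edgeR adjusted p = 0.442).

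Of 16 other ligands 10 were tested, 6 with negative and 4 with positive fold changes, and the median was -0.25. Tnfsf14, the gene of LIGHT, a costimulatory ligand of activated T cells, had 4.17, 10.7 and 5.39 CPM in HDAC1-cKO against 19.9, 17.3 and 19.6 CPM in WT (-1.48 ± 0.34, SE; adjusted p = 0.0677, edgeR). Fasl, which kills through Fas, had 1.38, 1.58 and 1.52 CPM against 15.98, 4.40 and 3.85 CPM (-2.44 ± 0.57, adjusted p = 0.0724). WT replicate 1 was far above the other WT libraries for Fasl. Of the ligands 3 were lower at an unadjusted edgeR p under 0.05, DESeq2 called 3 lower and limma-voom 1. Without HDAC1-cKO replicate 2, edgeR called 1 ligand lower, Tnfsf14, and 0 of the other receptors. In that fit 10 of 11 other ligands had a negative fold change, and their median was -0.715, near the -0.81 of the members.

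Signalling genes downstream of these receptors had fold changes closer to 0 at the median. All 24 adaptors, ubiquitin ligases and kinases of the fixed list were tested, with 17 negative and 7 positive fold changes, a median of -0.21 and a range from -0.67 to 0.38. In 8 of them the HDAC1-cKO libraries all lay below WT and in 0 above, beside 1835 below and 1975 above among all 15519 genes tested. Birc2 and Birc3, the ubiquitin ligases cIAP1 and cIAP2 that TRAF2 recruits to OX40 and 4-1BB, stood at 24.1 ± 0.909 against 38.2 ± 4.01 CPM and at 39.5 ± 8.22 against 62.0 ± 6.16 CPM (SD, n = 3). Their log2 fold changes were -0.67 ± 0.14 and -0.65 ± 0.17 (SE; adjusted p = 0.0535 and 0.102, edgeR), and both fell without HDAC1-cKO replicate 2. Of the list, 5 were lower at an unadjusted edgeR p under 0.05, and DESeq2 called 5 lower and limma-voom 4. The 11 NF-kB subunits and inhibitors had a median of -0.21, with 8 negative and 3 positive fold changes. Nfkbie and Nfkb2 were those of lowest p, at -0.47 ± 0.26 and -0.39 ± 0.22 (SE; adjusted p = 0.420 and 0.425, edgeR). None of this list had an unadjusted edgeR p under 0.05 or was called by DESeq2, 1 was called lower by limma-voom, and 1, Nfkb2, by edgeR without HDAC1-cKO replicate 2.

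Since OX40, 4-1BB and GITR follow antigen receptor signalling, 13 other activation genes were set beside them. Their median was -0.42, with 9 fold changes below 0 and 4 above. By edgeR 0 were called, while 3 were lower at an unadjusted edgeR p under 0.05, 1 by DESeq2 and 2 by limma-voom. Egr2, a transcription factor induced by the antigen receptor, averaged 9.75 ± 2.77 CPM without HDAC1, against 19.0 ± 5.07 CPM in WT (SD, n = 3; log2 fold change -0.96 ± 0.28, SE; adjusted p = 0.133, edgeR). Cd69, an early activation antigen, averaged 72.2 ± 16.3 and 100.6 ± 19.9 CPM (-0.48 ± 0.20, adjusted p = 0.284). The 4 genes above 0, outside the naming rule, were Myc (0.37), Irf4 (0.28), Nr4a1 (0.125) and Pdcd1 (0.08), with edgeR adjusted p from 0.394 to 0.947.

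**Figure D4:**
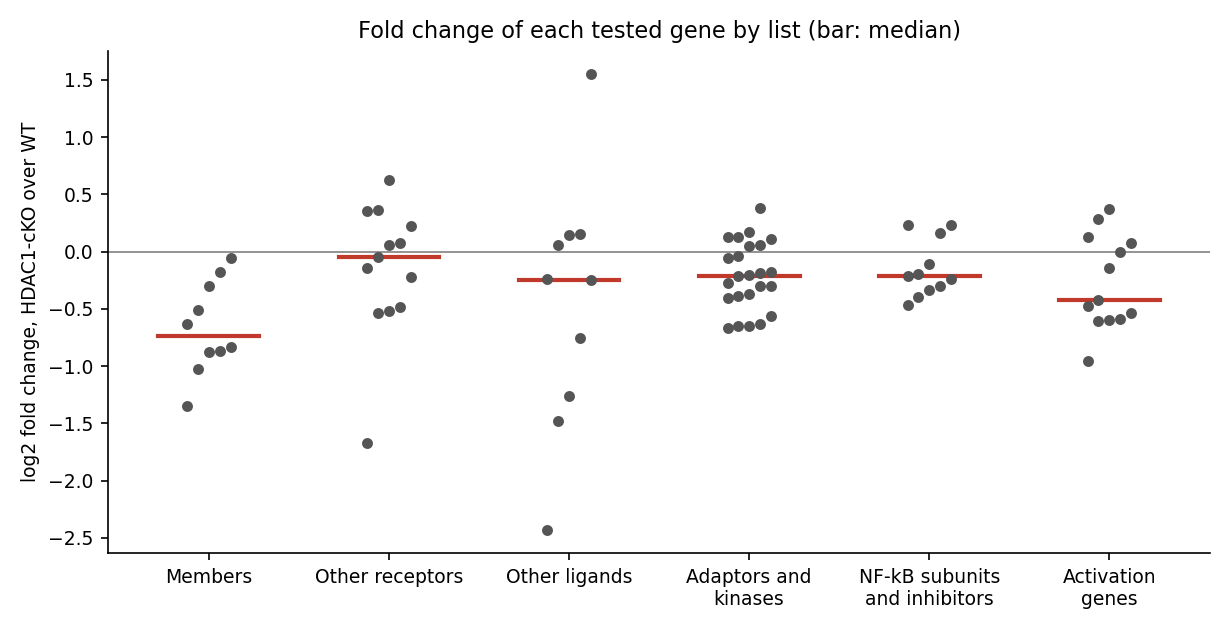
log2 fold change of HDAC1-cKO over WT for each tested gene (points) of the 10 members, the other receptors and ligands of the family, adaptors and kinases, NF-kB genes and activation genes, with list medians as red bars. The members all lie below 0 with a median of -0.73 (Cd27 lies above 0 when only library totals are used for scaling), and the other lists straddle 0 with medians from -0.42 to -0.05. Without HDAC1-cKO replicate 2 (not drawn) the medians were -0.81 for the members, -0.715 for the other ligands and -0.32 to -0.07 for the remaining lists. Members and lists were chosen with earlier results of these data known, so the contrast between them is a description and no test.

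Regulatory T cells carry much OX40, GITR, 4-1BB and TNFR2, so their markers were read beside these genes. Of 11 such markers 9 were tested, and 0 were called by edgeR. At an unadjusted p under 0.05 1 was lower, and 0 were called by DESeq2 and 1 lower by limma-voom. The defining factor Foxp3 reached only 0.147 to 2.97 CPM in HDAC1-cKO against 0.429 to 3.00 CPM in WT, and Lrrc32 was at 0 in all libraries. The summed level of the list was 652 to 810.5 CPM in HDAC1-cKO against 946 to 995 CPM in WT, most of it from Il2ra, Capg and Ctla4, which activated T cells express too. B cell markers summed to 145.5 to 309 CPM in HDAC1-cKO against 76.1 to 166.5 CPM in WT, with 0 of 10 markers at 0 and the highest sum in HDAC1-cKO replicate 2, where Cd27 was also highest. Myeloid and dendritic cell markers, of which 4 of 12 were at 0 in all libraries (Csf1r, Flt3, Cd14 and Clec9a), summed to 128 to 346 and 71.2 to 269.7 CPM, and were again highest in that library. Most of this sum came from H2-Ab1 and Cd74, at 89.8 and 249.8 CPM in HDAC1-cKO replicate 2. Lyz2 and Xcr1 stood at only 3.75 and 1.55 CPM there. Of these markers 6 were tested, with a median of -0.83. The fold changes of H2-Ab1 (0.54) and Cd74 (0.39) were positive and the other 4 negative, so the sum does not describe the list as a whole. Markers of CD8 T and NK cells, with Ncr1 and Klra8 at 0, summed to 71.0 to 84.7 CPM in HDAC1-cKO against 51.0 to 66.4 CPM in WT. Of these 3 lists 0 markers were called by edgeR; at an unadjusted p under 0.05, 2 B cell markers were higher, 2 myeloid markers lower and 1 CD8 T and NK cell marker higher. DESeq2 called 1 B cell marker higher, 1 myeloid marker lower and 1 CD8 T and NK cell marker higher, and limma-voom 1 B cell marker higher, 1 myeloid marker lower and 1 CD8 T and NK cell marker lower. The part of RNA from these cells in the results was not tested. The 12 T cell markers had 9 negative and 3 positive fold changes and a median of -0.22. At an unadjusted edgeR p under 0.05, 3 of them were lower, DESeq2 called 3 lower and limma-voom 8, beside the 7 of 10 members that limma-voom called lower, and 0 were higher by any of these. The part of T cell content in the members' values was not tested. Of the T cell markers edgeR called 1 lower, Cd3e (-1.42, adjusted p = 0.0102), a call that ended without HDAC1-cKO replicate 1 or HDAC1-cKO replicate 3 or WT replicate 3 (adjusted p up to 0.0716), and 5 lower without HDAC1-cKO replicate 2.

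Outside the family, the genes whose log2 CPM ran most like Tnfrsf9 over the 6 libraries, among 7482 genes with a mean of at least 10 CPM, were Samsn1, Tes and Mxd1 (Pearson r of 0.9981, 0.9848 and 0.9829). For Tnfrsf4 they were Rassf5, Myl4 and Plk3 (0.9913, 0.9836 and 0.9832). With 6 libraries and this many genes such values describe these libraries only. Samsn1, an adaptor protein of lymphocytes, averaged 64.7 CPM in HDAC1-cKO against 100.3 CPM in WT, a smaller distance than that of Tnfrsf9 (log2 fold change -0.63 against -1.35).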

How the data were processed

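The authors deposited a table of raw counts and a table of FPKM, each with 55536 genes in rows and the 6 libraries in columns. Per the labels' protocols, full-length cDNA was made by Smart-seq2 and libraries by Nextera XT, which does not mark strand, with single reads. The submitters' processing notes name STAR 2.5.2b, Picard 2.19.2, R 3.6.1 and DESeq2 1.24.0, with GRCm38 and GRCh38 as builds. The read counter and how strand was set are not stated in these sources. Across 10896 genes with high counts, the deposited FPKM equalled the count times 1 constant per gene, divided by the library's DESeq2 size factor.

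Counts were filtered with filterByExpr (15519 genes, at least 99.92% of each library's counts), scaled by TMM and tested with edgeR 4.0.16 (quasi-likelihood, robust, two-sided, R 4.3.3), with genotype as the only covariate. A gene was called at a Benjamini-Hochberg adjusted p under 0.05 over all genes. CPM use TMM-scaled totals. SE is the fold change divided by the root of the F statistic. Pearson r with GC content used genes with at least 10 CPM in every library. GC content came from GENCODE M21 transcripts, whose coordinates equalled those in the count table for all 10 members. Alternatives used DESeq2 1.42.0 and limma 3.58.1. The tests were tried on simulated counts. Figures were drawn with matplotlib 3.10.9. Depth ran from 19956153 to 55900237 counts, and reads carry no molecular identifiers.

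The 10 members, the lists and the alternatives were chosen with earlier results of these data known. All 10 members are named, and from each other family, signalling or activation list the called genes up to 4, or the 2 of lowest p. Groups follow the genotype in the titles, and p-values measure the spread between 3 pools of 2 mice.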

Additional observations from a re-analysis of the deposited data

How the results depend on the processing

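In 20 alternatives, 172 of 200 fold changes of the 10 genes kept their direction and side of the threshold, 25 passed it newly and 3 turned, all of Cd27: 0.206 without HDAC1-cKO replicate 1, 0.239 without HDAC1-cKO replicate 3 and 0.008 with total counts as scaling. Leaving out 1 library moved Cd27 between -0.866 and 0.239. The median over the 10 ran from -0.809 to -0.572. The number of members called lower, 0 in the main comparison, was 2 without a low-count filter (243 of all 25819 genes called lower), 2 with at least 10 CPM in 3 libraries (226 of 8413), 4 with DESeq2, 7 with limma-voom (819 of 15519), 1 each on log2(FPKM + 1) and log2(FPKM + 0.1) (197 and 195 of 15519), 1 with counts thinned to the smallest total (213 of 14185) and 2 with GC offsets (272 of 15519). It ran from 0 to 5 when 1 library was left out, the 5 without HDAC1-cKO replicate 2. No member was called higher in any of the 20 alternatives. Over all genes, 306 were called, against 1368 with DESeq2, 1589 with limma-voom, 520 with GC offsets, and 26 to 626 without 1 library, again highest without HDAC1-cKO replicate 2. The cause of these differences was not tested. The share of higher calls among the 306 was about even, with 152 higher and 154 lower, and with total counts 195 were higher and 134 lower.

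With the replicate number as a block 65 genes were called, 0 of them members, and with the block and GC offsets 251, again 0 members. For same-numbered libraries, the correlations of the deviations from the genotype means were 0.19, -0.005 and -0.137 for numbers 1, 2 and 3. For differently numbered libraries they ran from -0.191 to 0.204. With 3 libraries per genotype such values cannot decide whether the numbers mark pairs. The library codes in the column headers place same-numbered libraries next to each other. The labels state no pairing, so the main comparison used none. The count of members whose HDAC1-cKO libraries lay below WT was 6, and 9 without HDAC1-cKO replicate 2, a setting chosen after seeing the data.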
